A study of Mus musculus with 2 samples.

Results

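The 9 genes described here, which have known roles in fibroblast activation and are 9 of the 31053 genes in the count matrices, were followed across the cell classes of the mouse heart: Postn, Cilp, Comp, Thbs4, Tnc, Ctgf, Timp1, Ltbp2 and Meox1. They were chosen by symbol, with their levels in these data already known, so every difference below is a description and none was tested. All 9 reached a mean of at least 10 CPM (a gene's UMIs, molecules each counted once, scaled to a common total) in fibroblast-like cells, as did 8675 genes in all.

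The db/db and salt group were male mice with the db mutation of the leptin receptor gene Lepr on both copies, a change that is known to cause obesity and diabetes, given 1% salt. The db/+ group were male mice with the mutation on 1 copy and no salt treatment in the labels. Genotype and salt differ together, so their parts cannot be told apart. In both groups, cardiomyocytes were filtered out and CD45-positive leukocytes removed; 4 hearts per genotype were used, the labels give no age, and each group was 1 library, so no value has a replicate error. The title names the db/db and salt mice as a model of HFpEF, heart failure in which the ejection fraction is kept.

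Matricellular proteins are secreted into the matrix, where they mainly steer adhesion, growth factor signalling and fibre assembly and bear little load themselves. In the heart their genes are known to be low in resting fibroblasts and to be switched on by transforming growth factor beta and by stretch after injury. Postn (periostin), Tnc (tenascin C), the thrombospondins Comp and Thbs4, Cilp and Ctgf (also named Ccn2) belong to or stand close to this group; Ltbp2 is a microfibril-associated matrix protein, Timp1 inhibits matrix metalloproteinases, and Meox1 is a homeobox transcription factor and so no matrix protein.

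The 9 genes lie on 9 chromosomes of the GRCm38 assembly, all annotated as protein coding in GENCODE M21. Postn spans chromosome 3, 54361109 to 54391037, on the plus strand, with up to 23 exons in a transcript, and Cilp chromosome 9, 65265180 to 65280605, plus strand, with up to 10. Comp spans chromosome 8, 70373558 to 70382066, plus strand, and Thbs4 chromosome 13, 92751590 to 92794818, minus strand. Tnc spans chromosome 4, 63959785 to 64047015, minus strand, and Ctgf chromosome 10, 24595442 to 24598683, plus strand. Timp1 spans chromosome X, 20870166 to 20874735, plus strand, Ltbp2 chromosome 12, 84783212 to 84876532, minus strand, and Meox1 chromosome 11, 101877510 to 101894374, minus strand.

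RefSeq promoters (GRCm38.p6) were at hand for 6 of the 9 genes, Postn, Cilp, Thbs4, Tnc, Timp1 and Ltbp2, with 8 start sites in all. The motifs searched, on both strands of the 250 bases before each start, were TATATAA, a form of the TATA box, TGANTCA (AP-1), GGAATG (TEAD) and CAGAC (SMAD), and no matches overlap in the promoters printed. The promoters of Postn, Cilp and Tnc are shown because each holds TATATAA at nearly the same distance from its start, with matches of any of the searched motifs in capitals. They are Postn chr3:54360857-54361106, plus strand, Cilp chr9:65264930-65265179, plus strand, and Tnc chr4:64046937-64047186, minus strand, each written 5′ to 3′ along its gene.
Postn: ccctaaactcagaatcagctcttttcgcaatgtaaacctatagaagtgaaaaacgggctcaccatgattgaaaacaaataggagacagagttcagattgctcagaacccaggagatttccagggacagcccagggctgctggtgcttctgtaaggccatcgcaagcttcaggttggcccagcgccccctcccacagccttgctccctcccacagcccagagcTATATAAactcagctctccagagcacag
Cilp: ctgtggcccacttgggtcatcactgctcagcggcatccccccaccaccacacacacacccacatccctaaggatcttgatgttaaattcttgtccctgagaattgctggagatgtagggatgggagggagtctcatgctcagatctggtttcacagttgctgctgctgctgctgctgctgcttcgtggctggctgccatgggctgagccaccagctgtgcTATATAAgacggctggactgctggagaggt
Tnc: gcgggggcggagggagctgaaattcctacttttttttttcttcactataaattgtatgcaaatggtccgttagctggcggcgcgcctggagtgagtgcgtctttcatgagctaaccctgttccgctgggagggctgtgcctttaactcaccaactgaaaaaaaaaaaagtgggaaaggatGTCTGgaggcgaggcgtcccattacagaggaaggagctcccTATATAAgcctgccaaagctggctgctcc

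The TATATAA match began 28 bases before the printed start of Postn, 30 before that of Cilp and 29 before that of Tnc. Postn and Tnc each have another start site among the 8, without this match, and the windows of Tnc overlap. TATATAA was found in 3 of the 8 windows, against 3.04% of all 32851 RefSeq promoter windows of the same length. CAGAC was found in 4 of the 8 windows, against 42.2% of all, and GGAATG in 2, of Thbs4 and Timp1, against 12.6%. TGANTCA was in none of the 8 windows, against 6.75% of all. The opposite-strand match of CAGAC in Tnc, GTCTG, began 70 bases before the printed start.

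The libraries held 4751 barcodes in db/db and salt and 5676 in db/+, of which 4094 and 4884 were kept, with a median of 7772 and 7048 UMIs, and 7 barcode sequences occurred in both. Cells were assigned to classes by their UMIs of fixed marker lists that hold none of the 9 genes. Fibroblast-like cells numbered 1096 in db/db and salt and 1245 in db/+, 26.8% and 25.5% of the kept cells. All 9 fibroblast markers were detected in them, which follows from the class rule. Of the 10 genes that lead the class by fold, 5 were listed markers (Gsn, Dcn, Dpt, Lum and Col1a1), which the rule also favours. The others, not on the list that set the class, were Smoc2, Clec3b, Htra3, Ogn and Mfap5. Endothelial-like cells numbered 2721 and 3302, and no other named class passed 50 cells in a library. Cardiomyocyte-like cells were 3 and 2, and leukocyte-like cells 2 and 1. Fibroblast-like cells were deeper in db/db and salt, with a median of 11996.5 UMIs against 9655 in db/+. Lepr had 24.8 CPM in db/db and salt and 28.4 CPM in db/+ fibroblast-like cells, and 3′ tags do not show the mutation.

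All of the 9 genes but Meox1, 8 in number, were at least 1.5-fold lower in the fibroblast-like cells of db/db and salt than of db/+, on the scale log2 of CPM plus 10; of all 8675 genes 1.08% were. Tnc, at 4.56 CPM in db/db and salt and 16.4 CPM in db/+, reached the mean of 10 CPM only through db/+, and without its highest barcodes it did not reach it. None was 1.5-fold higher, against 0.611% of all genes. The median log2 ratio over the 9 genes was -0.85, and over all measured genes 0.02. Intervals given below are 95% exact intervals of counting error only, since animals and preparations were not replicated. Those of levels and folds take UMIs as independent, although the UMIs of a gene were clumped in cells.

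**Figure D1:**
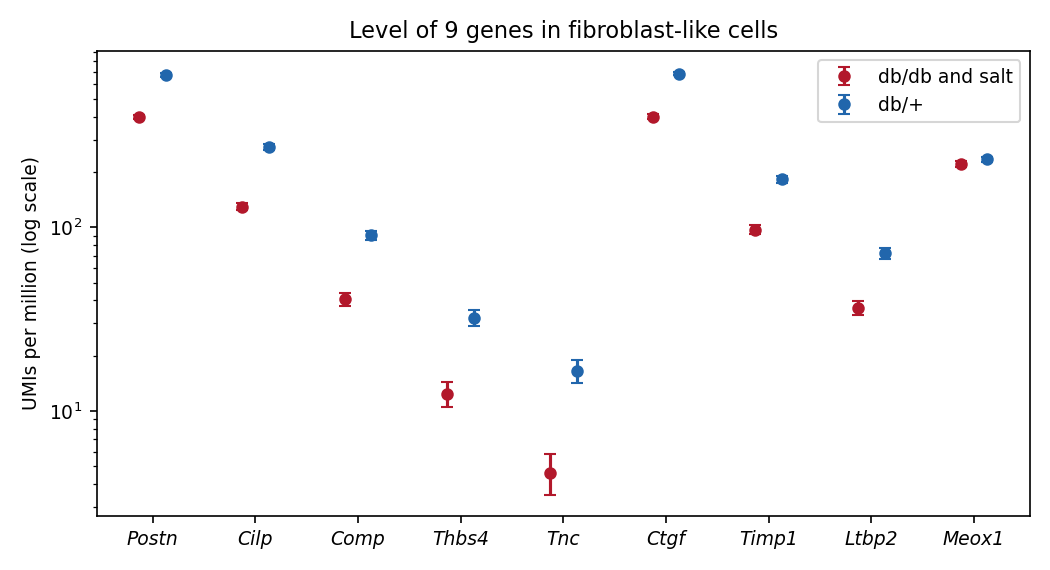
Level of each gene in fibroblast-like cells, in CPM on a log axis, for db/db and salt (left of each pair) and db/+; points are the library's value and bars 95% exact Poisson intervals. With 10 CPM added, 8 genes are at least 1.5-fold lower in db/db and salt, as are 1.08% of all 8675 measured genes. The pair for Meox1, at 222 and 234, lies close together. The bars take UMIs as independent and are narrow.

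Postn encodes periostin, a collagen-binding matrix protein made by activated fibroblasts. It gave 5415 UMIs (399 CPM) in db/db and salt and 8437 UMIs (677 CPM) in db/+, a fold of 0.589 (0.569 to 0.610). Tnc, an anti-adhesive glycoprotein of wounds, gave 62 UMIs (4.56 CPM) and 205 UMIs (16.4 CPM), a fold of 0.278 (0.206 to 0.371) and a log2 ratio of -0.86. These UMIs came from few cells: in db/+ the single highest barcode held 70 of the 205 Tnc UMIs, and in db/db and salt 21 of the 62. Without the highest barcode of each library Tnc had 3.02 CPM in db/db and salt and 10.9 CPM in db/+, a log2 ratio of -0.68.

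Of the thrombospondins, pentameric proteins that bind collagen, Comp gave 551 UMIs (40.6 CPM) in db/db and salt and 1125 UMIs (90.2 CPM) in db/+, a fold of 0.450 (0.405 to 0.498). Thbs4 gave 167 UMIs (12.3 CPM) in db/db and salt and 400 UMIs (32.1 CPM) in db/+, a fold of 0.383 (0.318 to 0.460). Both were held by small groups of cells. The 5 richest of 1096 cells held at least 50% of Comp UMIs in db/db and salt, as did the 7 richest of 1245 in db/+; for Thbs4 these were 2 and 6 cells.

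Cilp, a large secreted protein first described in cartilage, had a log2 ratio of -1.02, with 1757 UMIs (129 CPM) in db/db and salt and 3411 UMIs (274 CPM) in db/+, a fold of 0.473 (0.446 to 0.501). Ctgf, a CCN family protein and a standard target of YAP and of transforming growth factor beta, gave 5445 UMIs (401 CPM) and 8569 UMIs (687 CPM), a fold of 0.583 (0.564 to 0.604). Ltbp2, a protein of elastic microfibrils, gave 492 UMIs (36.2 CPM) in db/db and salt and 900 UMIs (72.2 CPM) in db/+, a fold of 0.502 (0.449 to 0.561). Their log2 ratios were -0.76 for Ctgf and -0.83 for Ltbp2, and both fold intervals lay below 1. These intervals take UMIs as independent. The 20 richest cells in db/db and salt and the 28 richest in db/+ held at least 50% of Ltbp2 UMIs. By share of cells thinned to 3000 UMIs, the Ltbp2 intervals met, at 4.86% to 7.85% and 7.28% to 10.6%. Ltbp2 was not past 1.5-fold after thinning to 3000 UMIs (-0.43), without barcodes that carried other classes' markers (-0.45) or with a pseudocount of 50 CPM (-0.50).

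Timp1, the metalloproteinase inhibitor, gave 1318 UMIs (97.0 CPM) in db/db and salt and 2277 UMIs (183 CPM) in db/+, a fold of 0.531 (0.496 to 0.569). A single barcode held 396 of its UMIs in db/db and salt and another 380 in db/+, which is 30.0% and 16.7% of the gene's UMIs. Without them Timp1 had 68.0 CPM in db/db and salt and 153 CPM in db/+, a log2 ratio of -1.06. The barcode in db/db and salt also held 280 UMIs of the chemokine Ccl2, 66 of Cilp and none of Postn, and that in db/+ held 277 of the smooth muscle gene Tagln, 206 of Postn, 172 of Ctgf and 70 of Tnc.

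Meox1, the homeobox gene, was nearly level: 3011 UMIs (222 CPM) in db/db and salt and 2917 UMIs (234 CPM) in db/+, a fold of 0.948 (0.90 to 0.998). Its log2 ratio of -0.07 was the only one of the 9 smaller in size than the 1.5-fold threshold of 0.585. Across the alternatives tried for scaling, filters and classes it lay between -0.10 and -0.05. By depth it was -0.05 in cells under 6000 UMIs, -0.34 in those of 6000 to 12000 and -0.22 in those of 12000 or more.

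Several other measures of these fibroblast-like cells differed between the libraries, not all in the direction of the 9 genes. Their part in the lower levels was not tested. The 8 endothelial markers, all detected in both libraries, summed to 255 CPM in the fibroblast-like cells of db/db and salt and to 490 CPM in those of db/+, while the median share per cell was 0.0118% and 0.0105% of UMIs and the 95th percentile 0.0472% and 0.161%, so that few cells carried the difference. Of the 7 smooth muscle markers, the 4 that are also YAP and SRF targets (Tagln, Acta2, Cnn1 and Myl9) summed to 134 CPM in db/db and salt and 208 CPM in db/+, and the other 3 to 21.1 and 18.3 CPM. Pericyte markers summed to 144 and 138 CPM and Schwann markers to 50.2 and 39.1 CPM. With every barcode that carried 3 or more UMIs of another class's markers left out, the median over the 9 genes was -0.66, with 6 genes past the threshold, Tnc and Ltbp2 being lost. By depth, the median was -0.05 in cells under 6000 UMIs (64 in db/db and salt and 153 in db/+, 3 genes past the threshold), -0.86 in cells of 6000 to 12000 UMIs (484 and 772, 7 genes) and -1.34 in cells of 12000 UMIs or more (548 and 320, 8 genes). The shallow cells held few UMIs of most genes, 5 of Tnc in db/db and salt and 4 in db/+ for example. No share of all genes past the threshold was set beside the counts in these subsets of cells.

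Shares of positive cells need equal depth, so each cell was thinned to 3000 UMIs, which left 1075 fibroblast-like cells in db/db and salt and 1201 in db/+, with 21 and 44 shallower cells left out. A UMI of Postn was then seen in 21.0% (18.6 to 23.6) of cells in db/db and salt and 29.0% (26.4 to 31.6) in db/+. Cilp was seen in 9.58% (7.89 to 11.5) and 17.1% (15.0 to 19.3), and Ctgf in 34.6% (31.8 to 37.5) and 43.3% (40.5 to 46.2). Timp1 was seen in 11.9% of cells in db/db and salt and 18.1% in db/+, and Ltbp2 in 6.23% and 8.83%. All of these shares were lower in db/db and salt. The intervals of Postn, Cilp, Ctgf and Timp1 do not meet, and those of Ltbp2 do. How many of all genes have intervals that do not meet was not examined.

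The rarer genes were positive in few thinned cells: Comp in 24 (2.23%) of db/db and salt and 49 (4.08%) of db/+, Thbs4 in 10 (0.930%) and 26 (2.16%), and Tnc in 10 (0.930%) and 16 (1.33%). Meox1 was seen in 30.1% and 32.8%. The intervals of Comp, Thbs4, Tnc and Meox1 meet. In unthinned cells the shares were higher, such as 31.1% and 36.7% for Postn and 17.2% and 23.6% for Cilp. Of the thinned endothelial-like cells, which should lack most of these genes and had medians of 5563 and 5440.5 UMIs before thinning, 1.22% in db/db and salt and 0.620% in db/+ had a Postn UMI, 0.181% and 0.0775% a Cilp UMI and 3.26% and 2.79% a Ctgf UMI. For Tnc the endothelial-like shares, 0.317% and 0.582%, were lower than the fibroblast-like shares, with intervals that meet in both libraries. Intervals that meet do not show equal shares, and the difference was not tested. Before thinning, Tnc had 4.56 CPM in fibroblast-like and 1.44 CPM in endothelial-like cells of db/db and salt. In db/+ these levels were 16.4 and 3.58 CPM. The intervals of the levels do not meet in either library, but they take UMIs as independent, and few cells held most fibroblast-like Tnc UMIs.

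**Figure D2:**
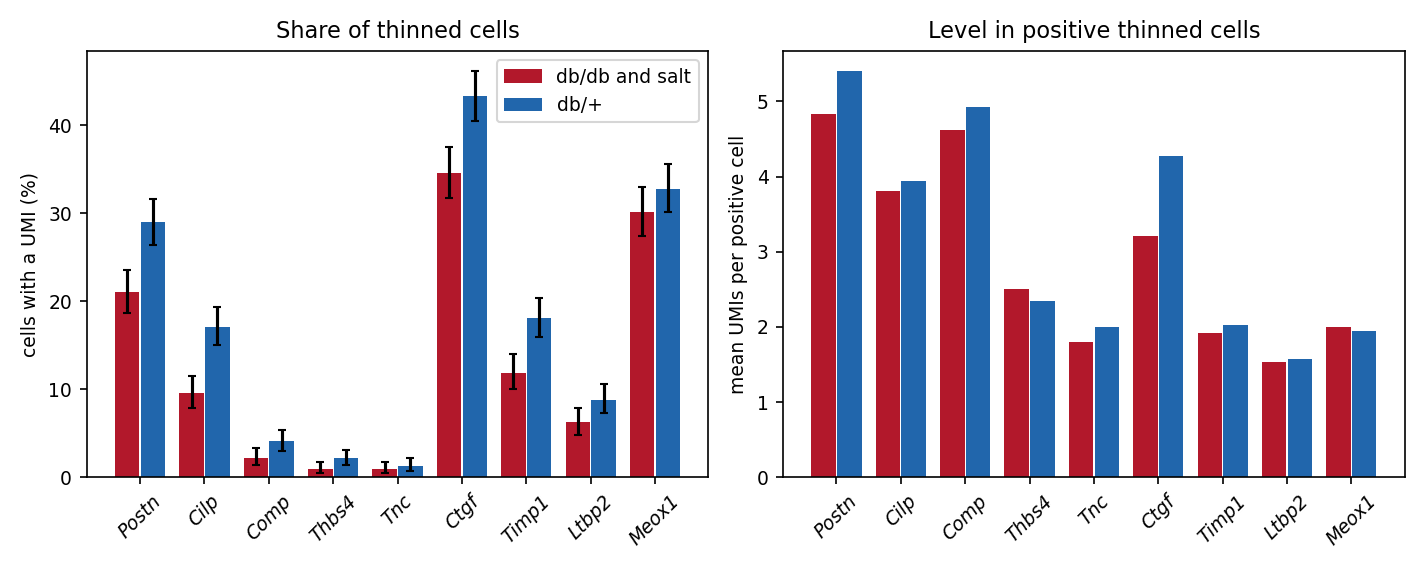
Left: percent of fibroblast-like cells, thinned to 3000 UMIs, with a UMI of each gene, with 95% Clopper-Pearson intervals. Right: mean UMIs in the positive cells, with no error since it is a mean of 1 library. Bars for db/db and salt stand left of db/+; the shares are lower for all 9 genes, while the levels per positive cell differ most for Ctgf, at 3.20 and 4.28.

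In the positive thinned cells, Ctgf had a mean of 3.20 UMIs in db/db and salt and 4.28 in db/+. Postn had 4.83 and 5.40, Cilp 3.81 and 3.95, and Comp 4.63 and 4.92. Put as log2 parts of the thinned level, the difference in Ctgf was -0.32 from the share of cells and -0.42 from the level in them, whereas that in Postn was -0.46 from the share and -0.16 from the level, and that in Cilp -0.83 and -0.05. For Timp1 the parts were -0.60 and -0.08 and for Ltbp2 -0.50 and -0.04. The level parts of Timp1 and Ltbp2 rest on means of 1.54 to 2.03 UMIs and are too near 1 UMI to be read as equal levels.

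Cells rich in Postn, Ctgf, Cilp, Timp1 or Comp were fewer in db/db and salt. At least 10 Postn UMIs were found in 33 thinned cells (3.07%) of db/db and salt and 61 (5.08%) of db/+, and at least 10 Ctgf UMIs in 27 (2.51%) and 52 (4.33%). For Cilp these were 10 and 21 cells, for Timp1 3 and 7, and for Comp 3 and 7. For Meox1 they were 1 and 2 cells, and no cell of either library held so many UMIs of Thbs4, Tnc or Ltbp2. No interval was set on these counts.

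Counted together, none of the 9 genes was detected in 41.0% of thinned fibroblast-like cells of db/db and salt, against 30.2% in db/+. At least 3 were detected in 166 cells (15.4%, 13.3 to 17.7) of db/db and salt and 282 cells (23.5%, 21.1 to 26.0) of db/+, a log2 ratio of the shares of -0.60 (counting interval -0.85 to -0.35). At least 5 were detected in 36 cells (3.35%) and 71 cells (5.91%). A db/+ cell held 8 of them, and no cell in either library held all 9.

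**Figure D3:**
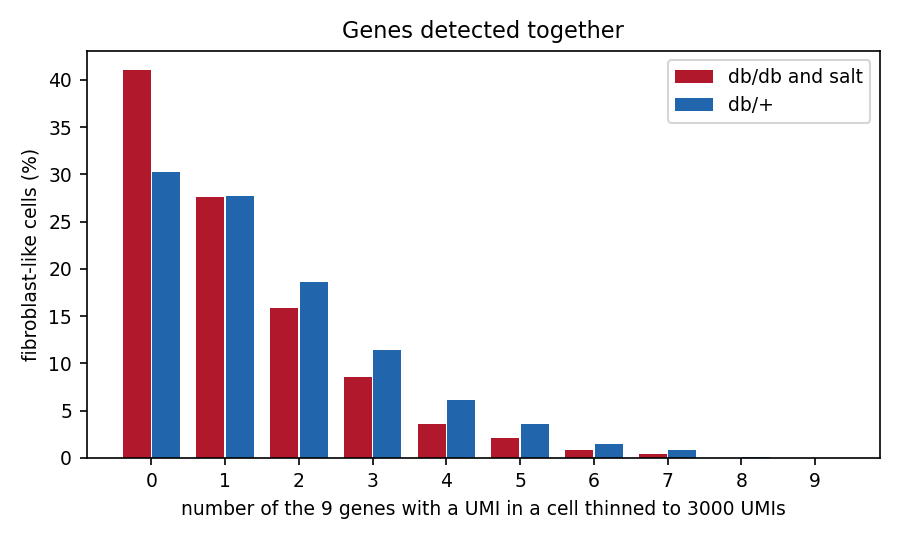
Percent of fibroblast-like cells, each thinned to 3000 UMIs, by the number of the 9 genes with at least 1 UMI; bars for db/db and salt stand left of db/+. Cells with none make up 41.0% and 30.2%, and every bar from 2 genes to 8 is lower in db/db and salt.

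The genes were found in the same cells more often than the product of their single shares. Of 36 pairs, 22 had at least 3 cells by that product in both libraries; all 22 exceeded it in both, 14 of them at least 1.5-fold, with a median ratio of 1.93 in db/db and salt and 1.65 in db/+. Postn paired with any of 6678 other genes detected in at least 5% of cells had a median ratio of 0.98 in db/db and salt and 1.00 in db/+, and 1.63% and 0.674% of those genes reached 1.5. That share was higher for the genes of few positive cells, 13.7% and 8.63% for Comp, 21.0% and 14.1% for Thbs4, 20.0% and 18.2% for Tnc and 6.35% and 4.33% for Ltbp2. These ratios are descriptions within a library, whose cells share its chemistry and depth.

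The closest pair with enough cells was Cilp and Ltbp2, at 4.52 in db/db and salt and 3.26 in db/+: 29 cells had both where 6.42 were given by the product in db/db and salt, and 59 where 18.1 were in db/+. Postn and Ltbp2 had ratios of 3.12 and 2.25, Postn and Cilp 2.82 and 2.10, and Comp and Meox1 2.76 and 2.24. Among the lowest ratios were those of Timp1 with Ctgf, 1.26 and 1.15, and with Meox1, 1.45 and 1.33. Tnc was seen with Timp1 in 4 of 10 Tnc-positive cells of db/db and salt and 9 of 16 of db/+, and with Comp in none, too few cells for a ratio to be read.

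**Figure D4:**
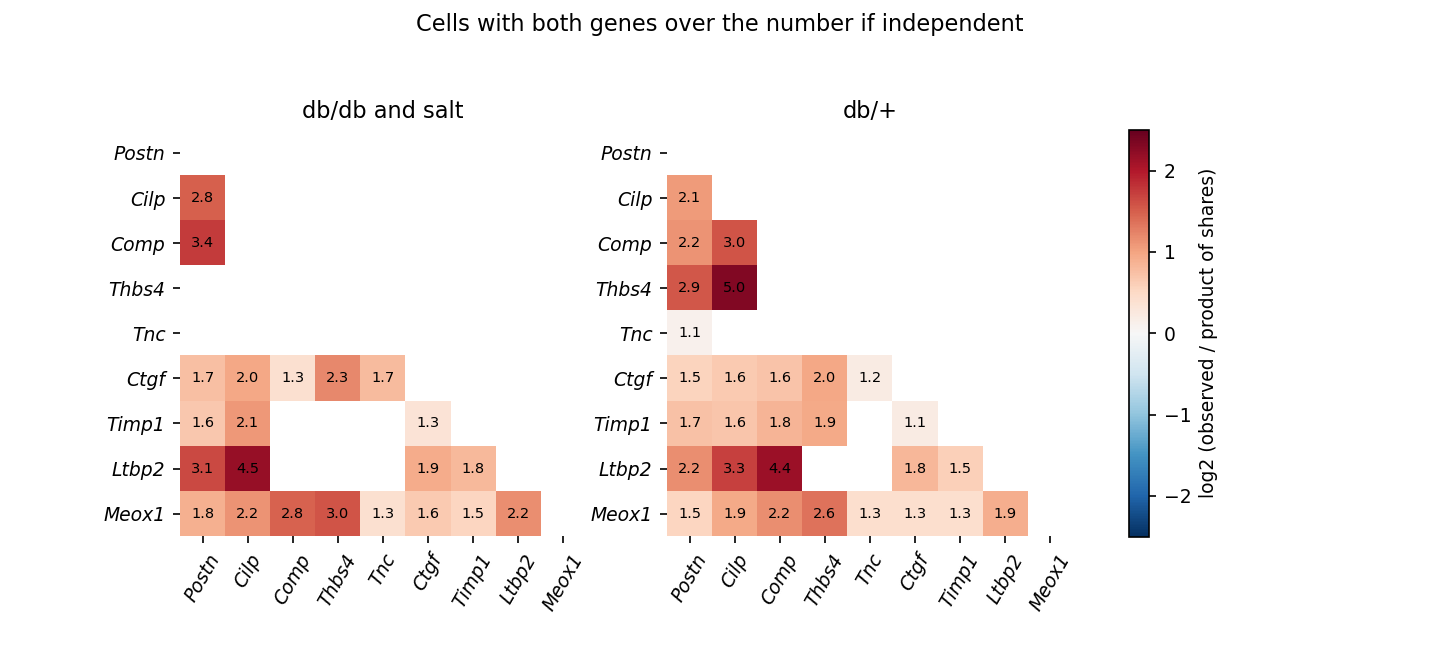
Cells with both genes of a pair, divided by the number given by the product of their shares (printed in each square; colour is its log2), in thinned fibroblast-like cells of db/db and salt (left) and db/+ (right). Squares are blank where fewer than 3 cells are given by the product; every drawn square is above 1, led by the pair of Cilp and Ltbp2 in db/db and salt, at 4.52, and by that of Cilp and Thbs4 in db/+, at 4.96.

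The share of Cilp-positive cells differed widely with the number of other members in the cell. Of db/db and salt cells with none of the other 8 genes, 1.56% had Cilp, and of those with 3 or more, 34.8%; in db/+ these were 3.46% and 47.2%. For Timp1 they were 7.35% and 22.0% in db/db and salt and 9.25% and 30.6% in db/+. Thbs4 was confined, with 1 exception in db/db and salt and 2 in db/+, to cells with 3 or more of the others: 9 of its 10 positive thinned cells in db/db and salt and 24 of 26 in db/+.

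Fibroblast-like cells were then split by 4 marker lists without any of the 9 genes: an interstitial list (Hsd11b1, Cxcl14, Inmt, Smoc2), an adventitial list (Pi16, Dpp4, Sema3c, Cd55, Ackr3, Anxa3), a list of Wnt modulators (Wif1, Dkk3, Frzb) and a list of activation markers (Col8a1, Ddah1, Fmod, Cthrc1, Lox, Fap, Chad). The groups are ranges of a score, not types: 119 of the 245 activation-marker cells of db/db and salt and 129 of the 307 of db/+ lay within 0.5 of another group's score. Interstitial-marker cells were 343 in db/db and salt and 313 in db/+, adventitial-marker cells 291 and 340, Wnt-modulator cells 149 and 154, activation-marker cells 245 and 307, and 68 and 131 were in none. Of the activation list, Fmod was lower inside its group than outside, at 17.0 against 39.1 CPM, and Chad was at 0 there.

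In activation-marker cells all 9 genes were measured and 8 were at least 1.5-fold lower in db/db and salt, against 1.58% of the genes measured there, and none was higher, against 1.24%. Postn had 653 CPM in db/db and salt and 1213 CPM in db/+, Cilp 327 and 633 CPM, and Ctgf 708 and 1152 CPM. Comp had 14.5 and 93.6 CPM, from 46 and 323 UMIs, and Tnc 10.7 and 50.1 CPM, from 34 and 173 UMIs. Few barcodes held these: the 3 richest in Comp held 42 of the 46 and 264 of the 323 UMIs, and the 3 richest in Tnc 27 of the 34 and 128 of the 173. Without the richest barcode of each library Comp had 3.16 CPM in db/db and salt and 54.7 CPM in db/+, Tnc 4.13 and 30.1 CPM, and Timp1 121 and 275 CPM, against 245 and 383 CPM with it. In adventitial-marker cells 6 of 7 measured were lower, against 1.3%, with Postn at 281 and 490 CPM, Cilp at 72.5 and 187 CPM and Timp1 at 47.4 and 123 CPM.

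Wnt-modulator cells, in which Comp was highest of the 4 groups in both libraries, had 241 CPM of it in db/db and salt and 431 CPM in db/+. Postn there had 1004 and 1257 CPM, a log2 ratio of -0.32, and Meox1 451 and 424 CPM. Of 8 genes measured there 4 were past the threshold, Cilp, Comp, Thbs4 and Timp1, against 1.71% of genes, and none was higher, against 1.6%. Of 5 measured in interstitial-marker cells 2 were lower, Ctgf and Timp1, against 1.4%, and none was higher, against 1.2%. Over the 4 groups 20 values were past it. By clustering in place of marker lists, 1 cluster of 230 and 327 fibroblast-like cells held most Cilp UMIs. There the log2 ratios of Postn (-0.71), Cilp (-0.84), Comp (-0.81), Tnc (-1.05) and Ltbp2 (-0.70) were past the threshold. Those of Thbs4 (-0.44), Ctgf (-0.56) and Timp1 (-0.40) were not, and Meox1 was at 0.19. A smaller cluster, of 64 and 68 cells, had more Postn, at 1924 and 2097 CPM. In it Postn (-0.12), Ctgf (-0.26), Timp1 (-0.30), Ltbp2 (-0.48) and Meox1 (-0.40) were not past the threshold. Cilp (-0.60), Comp (-1.165), Thbs4 (-1.92) and Tnc (-0.66, from 1 and 6 UMIs) were. No share of all genes was set beside these cluster values. Thbs4 in adventitial-marker cells, under a mean of 10 CPM and so not among those measured, was higher in db/db and salt, as 0.946% of genes were, with 14.6 CPM in db/db and salt and 1.34 CPM in db/+, and a single barcode held 54 of its 60 UMIs in db/db and salt.

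**Figure D5:**
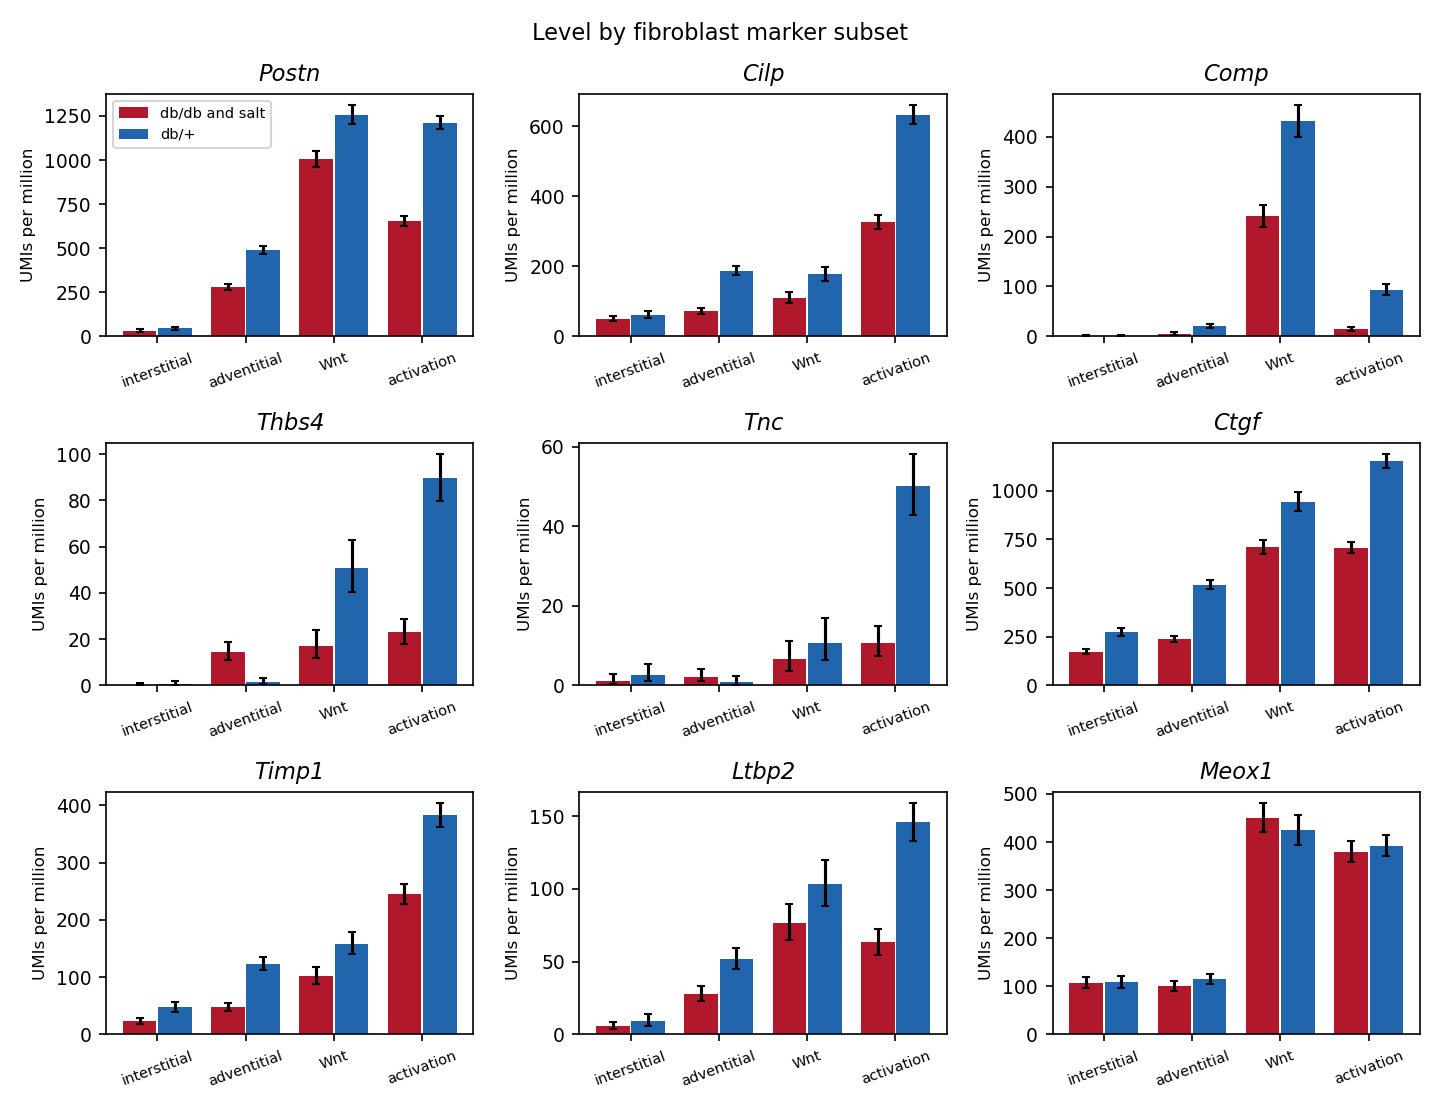
Level of each gene, in CPM from 0, in 4 groups of fibroblast-like cells set by marker lists that hold none of the 9; bars for db/db and salt stand left of db/+, with 95% exact Poisson intervals. Cilp is highest in activation-marker cells (327 and 633), Comp in Wnt-modulator cells (241 and 431), and the Meox1 pairs lie close together in all 4 groups.

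With the db/db and salt levels of each group weighted by the db/+ makeup, the log2 ratio was -0.69 for Postn, -0.92 for Cilp, -1.05 for Comp and -0.71 for Timp1. Over thinned cells Comp went with Fmod, which encodes fibromodulin, at Pearson r of 0.57 in db/db and salt and 0.56 in db/+, and with the Wnt inhibitor Wif1 at 0.44 and 0.41. Cilp went with Col8a1, a short-chain collagen, at 0.27 and 0.40. Smoc2, an interstitial marker, went against Postn, at -0.37 and -0.36. These correlations are over cells of 1 library each, 1075 and 1201.

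Among the 10 genes most like the summed 9 over fibroblast-like cells, of 9821 genes ranked by the smaller r of both libraries, were Mfap4, Csrp2, Vim, Dkk3, Prg4, Bgn, Pmepa1, Dio2 and Cd9. Mfap4, a microfibril-associated protein, led with r of 0.58 in db/db and salt and 0.51 in db/+ over 1096 and 1245 cells. Mfap4 (396 and 621 CPM, log2 ratio -0.64) and Dio2, a deiodinase (23.2 and 41.1 CPM, -0.62), were 1.5-fold lower in db/db and salt. Of all 8675 measured genes 1.08% were. The others named lay between -0.30 and 0.28.

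Other genes of the same pathways were mostly level. Of 16 further matricellular genes measured, 1 was 1.5-fold lower, the CCN gene Wisp2, with 65.2 CPM in db/db and salt and 133 CPM in db/+, and the list's median log2 ratio was -0.01. Of 25 genes of transforming growth factor beta signalling 2 were lower, among them the target Tgfbi, with 65.1 CPM in db/db and salt and 124 CPM in db/+, and the list median was 0.02. Of 13 tissue inhibitors and matrix proteases 1 was lower, Mmp3, stromelysin, with 32.6 and 93.2 CPM, list median -0.03.

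Of 24 collagen and crosslinking genes none was lower and 1 was higher in db/db and salt, Eln, which encodes elastin, with 638 CPM in db/db and salt and 405 CPM in db/+, and the list median was -0.07. Of 12 YAP and SRF targets, Acta2, smooth muscle actin, was lower, with 39.2 and 76.1 CPM, list median -0.14. Of 15 receptors for such proteins Cd36 was lower, with 35.3 and 70.8 CPM, list median 0.01. Of 16 mesenchyme transcription factors Runx1 was lower, with 6.26 and 14.6 CPM, list median 0.06, but it reached the mean of 10 CPM only through db/+. Of 12 early response genes, which cell dissociation can also induce, Nr4a1 was higher in db/db and salt, with 114 and 65.7 CPM, list median 0.07. Acta2 is itself among the smooth muscle markers summed above, and Cd36 is also known from endothelial cells.

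Across classes, Cilp and Thbs4 were nearly absent outside fibroblast-like cells, which held 97.1% of Cilp UMIs in db/db and salt and 99.7% in db/+, and 98.2% and 99.5% of those of Thbs4. Timp1 (93.9% and 97.6%) and Ltbp2 (90.3% and 98.1%) followed. Barcodes with markers of more than 1 type held 42 Cilp and 27 Ltbp2 UMIs in db/db and salt, and 2 and 7 in db/+.

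Postn was also carried by mural and glial cells. Pericyte-like cells held 71 Postn UMIs in 44 cells of db/db and salt and 259 in 50 cells of db/+, and Schwann-like cells 68 UMIs in 7 cells and 124 in 14. Comp was carried by endocardial-like cells, the lining of the chambers: 17 of 30 cells of db/db and salt and 22 of 40 of db/+ had it, with 89 and 88 UMIs. In the Timp1 counts of db/db and salt, 53 UMIs came from 2 mesothelial-like cells, and no such cell was found in db/+.

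Meox1, and to a lesser extent Tnc, differed from the other genes in place. Endothelial-like cells held 30.6% of Tnc UMIs in db/db and salt and 27.7% in db/+, from 30 and 91 UMIs. They held 38.6% of Meox1 UMIs in db/db and salt and 56.1% in db/+. Meox1 had 97.4 CPM (93.2 to 102) and 163 CPM (158 to 168) there, a log2 ratio of -0.69. Its level in fibroblast-like cells was close in both libraries. Of the 3 genes measured in endothelial-like cells it was the 1 to be 1.5-fold lower, as 1.53% of 8304 measured genes were; the other 6 were under a mean of 10 CPM, among them Tnc with 30 UMIs (1.44 CPM) in db/db and salt and 91 UMIs (3.58 CPM) in db/+. Ctgf there had 15.8 CPM in db/db and salt and 15.7 CPM in db/+. Postn was 1.5-fold higher (0.578% of genes were), with 322 UMIs (15.5 CPM) in db/db and salt and 157 UMIs (6.18 CPM) in db/+, and reached the mean of 10 CPM only through db/db and salt. A single barcode held 168 of these Postn UMIs in db/db and salt and another 55 in db/+; without them Postn had 7.42 and 4.02 CPM, a log2 ratio of 0.31, and was under that mean. In each of the 8 endothelial clusters with at least 50 cells in both libraries Meox1 was lower in db/db and salt, with log2 ratios from -0.92 to -0.17, past the threshold in 3. These clusters held 1779 of the 2023 endothelial-like Meox1 UMIs in db/db and salt and 2045 of the 4139 in db/+. Another cluster had 10 cells in db/db and salt and 800 in db/+, with 9 and 1340 Meox1 UMIs, so the class as a whole sets side by side cells of different clusters. After thinning, 21.6% and 31.2% of endothelial-like cells had a Meox1 UMI.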

How the data were processed

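Cells of hearts of male mice were measured in 2 libraries, 1 of db/db mice given 1% salt and 1 of db/+ mice. Per the labels' protocols, hearts were digested, filtered to remove cardiomyocytes, depleted of CD45-positive cells and loaded for 10x 3′ v3.1 libraries; the labels do not say whether the 4 hearts of a genotype were pooled. The authors deposited whole-number UMI counts per gene and barcode, made with Cell Ranger 6.0.2 per the file headers; GRCm38 (mm10), Cell Ranger and Seurat are named in the submitters' processing notes. The deposited matrices hold barcodes of at least 500 UMIs in db/db and salt and 502 in db/+, 40974634 and 44935235 UMIs in all.

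Barcodes with more than 10% mitochondrial UMIs (13 genes) or under 500 genes were left out, then doublets called by Scrublet (expected rate set by the number of cells; 50 of db/db and salt and 64 of db/+). A class was the marker list with the highest mean log-normalised level, at least 1.5 times that of lists outside its family; fibroblast groups were the highest of 4 standardised list scores, above 0 with at least 3 UMIs. Levels are class sums scaled to a common total (CPM). Ratios are log2 of CPM plus 10, and measured genes have a mean of at least 10 CPM. Cells were thinned to 3000 UMIs for shares. Intervals are exact Poisson, conditional binomial and Clopper-Pearson. With 1 library per group no test was made. Python 3.11.15, scanpy 1.11.5, scipy 1.17.1 and, for TMM scaling alone, edgeR 4.0.16 were used, and the computations were tested on simulated data. The genes and lists were chosen with earlier results of these data known. The genes named are the 9, up to 4 others per pathway list at least 1.5-fold apart with the largest ratios, and the 10 most correlated with the summed 9; top barcodes and the cells of other classes were described after their values were seen. Some genes that this rule names are not reported here. Alternatives covered pseudocounts, scaling, filters, classes, thinning and group minimums.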

Additional observations from a re-analysis of the deposited data

Results flagged for a closer look

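Postn went in opposite directions between classes, and the difference was not tested. Its fold of db/db and salt over db/+ was 2.51 in endothelial-like and 1.85 in endocardial-like cells, against 0.589 in fibroblast-like, 0.308 in pericyte-like and 0.436 in smooth muscle-like cells. Of the endothelial-like Postn UMIs, 168 of 322 in db/db and salt and 55 of 157 in db/+ lay in 1 barcode each. Endothelial-like cells with 3 or more Postn UMIs, 16 in db/db and salt and 11 in db/+, had pericyte markers summing to 3536 and 2519 CPM, against 331 and 318 CPM in the other endothelial-like cells. Their fibroblast markers summed to 2181 and 816 CPM, against 180 and 98.9 CPM in the others, and their endocardial markers to 1292 and 281 CPM, against 131 and 113 CPM. The part of these markers in the Postn values was not tested. The endocardial-like value rests on 4 positive cells in each library, 74 and 40 UMIs. That of smooth muscle-like cells rests on 7 positive cells in db/db and salt and 11 in db/+, with 50 and 76 UMIs. Of these UMIs, 2 barcodes held 84% in db/db and salt and 2 held 57.9% in db/+. The pericyte-like value rests on 27 and 47 positive cells, with 71 and 259 UMIs.

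Ltbp2 had a fold of 3.97 in endothelial-like cells, from 26 UMIs in db/db and salt and 8 in db/+, against 0.502 in fibroblast-like cells. A single barcode held 11 of the 26, and this difference was not tested either.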

How the results depend on the processing

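The median log2 ratio of the 9 genes in fibroblast-like cells, -0.85, was -0.98 with a pseudocount of 1 CPM and -0.63 with 50 CPM, where 5 genes in place of 8 passed 1.5-fold (Thbs4, Tnc and Ltbp2 lost). It was -0.66 without barcodes that carried other classes' markers and -0.61 after thinning, with 6 genes each (Tnc and Ltbp2 lost). TMM scaling gave -0.87, a 20% mitochondrial limit -0.85, doublets kept -0.85 and Leiden classes -0.77, with 8 genes each. Chosen after seeing the data, cells under 6000 UMIs gave -0.054 with 3 genes, cells of 6000 to 12000 UMIs -0.86, cells of 12000 or more -1.34, and leaving out each gene's highest barcode -0.78 with 8 genes. The cause of these shifts was not tested. At least 1.5-fold lower shares were found for 4 genes, for 7 at 1500 UMIs, 6 at 6000 and 3 without thinning. No share of all genes was set beside these counts or those of the alternatives above, so they describe the 9 genes only. The log2 share ratio of cells with 3 or more genes, -0.60, was -0.30 without thinning. Of the values by fibroblast group, 20 passed, 13 with 50 CPM and 20 without each gene's highest barcode. None of these summaries reversed, but in cells under 6000 UMIs single genes had ratios above 0: Tnc 0.91 (5 UMIs in db/db and salt and 4 in db/+), Timp1 0.32 (26 and 52 UMIs) and Comp 0.10 (1 and 2 UMIs). No alternatives were run for the level per positive cell or the level in each class. Few UMIs limit Tnc and Thbs4 most. No paired analysis was possible because each group holds 1 library, so no replicate could be left out either.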
